A study of Homo sapiens with 7 samples.

Results

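The short-arm end of chromosome 8 and the long-arm ends of chromosomes 17 and 18 carried a dense cover of chromatin loops in Ishikawa cells, and the loops of these 3 ends are described here. A loop is a pair of different anchors, each a stretch of DNA marked by H3K27ac, that were found ligated together in at least 3 read pairs. Members were the loops with both anchor midpoints in 1 of 3 segments of hg19 (GRCh37). The 8p end ran from base 1 to 12000000 of chromosome 8, the 17q end from 68000001 to 81195210 of chromosome 17, and the 18q end from 67000001 to 78077248 of chromosome 18. They covered 36.3 Mb, 1.17% of the genome. Of the 163530 Ishikawa loops, 1927 lay in the 8p end, 2647 in the 17q end and 1908 in the 18q end, 6482 in all (3.96%). The same segments held 981 of the 42027 T-47D loops (2.33%) and 2804 of the 149226 LNCaP loops (1.88%). The segments were chosen by their number of loops per Mb in Ishikawa, so that density is given as a description and supports nothing.

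The study used H3K27ac HiChIP to find which distal regions contact which promoters. Of its 7 samples, 4 were Ishikawa cells, a line from an endometrial adenocarcinoma: 2 had the vehicle DMSO for 1 h and 2 had 10 nM 17β-estradiol (E2) for 1 h. T-47D, from a ductal carcinoma of the breast, gave 1 sample and LNCaP, from a prostate carcinoma, gave 2, with no treatment in the labels. The samples of a line were combined into 1 list, so no value has a replicate error, no test was possible, and the intervals below cover counting error only. The Ishikawa list consisted of 4 separately sorted blocks, which nothing ties to a sample or treatment, and E2 and DMSO were therefore not compared. Enzyme (DpnII in Ishikawa, MboI in the others), sonication, read length and depth followed the cell line and cannot be told apart from it.

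Acetylation of lysine 27 of histone H3 marks active promoters and enhancers. Enhancers can act on a gene from far away, and HiChIP reads out such contacts by ligating DNA ends held close together in the nucleus before the marked chromatin is pulled down. An anchor is called distal here when it holds no promoter, the promoter being the 500 bp centred on any annotated start site of a protein-coding gene. A gene is linked to a distal anchor when a loop joins that anchor to an anchor over its promoter. Genes with many annotated start sites have more chances to be linked. The segments differ in gene content as well: the 17q end is rich in genes, whereas the 18q end holds few genes between broad stretches without promoters.

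The sequences below belong to the members with the most contacts on the long arms. The first pair shows where an anchor begins and ends. The anchor over the CTDP1 promoter, chr18:77431206-77458786, had 38 partners in Ishikawa, the most in the 18q end, and both of its edges lie at GATC, the site both enzymes cut. All 3698 edges of Ishikawa anchors in the 3 ends lay at such a site, as did all 714 edges in T-47D and all 1240 in LNCaP. The 40 bases around each edge (plus strand, GRCh37) are given with that site in capitals.
CTDP1 anchor, left edge, chr18:77431186-77431225: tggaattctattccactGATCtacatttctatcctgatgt
CTDP1 anchor, right edge, chr18:77458767-77458806: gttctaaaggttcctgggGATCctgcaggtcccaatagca
The next set is the RefSeq promoters (GRCh38.p14 entries of 300 bases, each found once on its chromosome in GRCh37) of the gene with the most linked distal anchors in Ishikawa in the 17q end, SLC39A11, and in the 18q end, CTDP1, and of the gene with the most in LNCaP, NETO1. Capitals mark the GC box GGGCGG or its reverse complement CCGCCC, searched on both strands. SLC39A11 held 2 such matches, NETO1 held 3 and CTDP1 held 0. Of all 35116 RefSeq promoters, which include those of non-coding genes, 45.0% held a match. Among the 247 RefSeq promoters matched by symbol to genes of the 3 ends, 173 did (70.0%). A match describes the letters only.
SLC39A11, chr17:71088778-71089077, minus strand: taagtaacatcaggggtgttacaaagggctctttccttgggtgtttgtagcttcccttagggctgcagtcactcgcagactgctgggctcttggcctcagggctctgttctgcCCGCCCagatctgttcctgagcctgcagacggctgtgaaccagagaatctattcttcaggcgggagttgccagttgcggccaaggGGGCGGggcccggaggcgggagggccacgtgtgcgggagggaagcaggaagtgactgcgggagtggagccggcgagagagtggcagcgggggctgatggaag
CTDP1, chr18:77439553-77439852, plus strand: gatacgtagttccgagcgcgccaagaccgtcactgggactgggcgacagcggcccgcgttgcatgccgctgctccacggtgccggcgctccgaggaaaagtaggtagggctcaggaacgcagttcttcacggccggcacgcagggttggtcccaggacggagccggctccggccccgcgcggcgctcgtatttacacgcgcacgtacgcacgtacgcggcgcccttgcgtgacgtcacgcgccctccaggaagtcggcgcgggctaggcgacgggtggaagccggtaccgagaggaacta
NETO1, chr18:70535173-70535472, minus strand: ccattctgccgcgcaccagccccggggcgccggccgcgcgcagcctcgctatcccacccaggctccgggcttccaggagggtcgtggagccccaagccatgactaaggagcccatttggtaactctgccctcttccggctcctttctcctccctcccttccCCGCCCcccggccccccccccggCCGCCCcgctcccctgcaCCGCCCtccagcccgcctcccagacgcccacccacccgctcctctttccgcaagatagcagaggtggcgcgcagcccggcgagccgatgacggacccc
The SLC39A11 promoter lay in an anchor of the Ishikawa and T-47D lists and in no LNCaP anchor. The CTDP1 and NETO1 promoters each lay in an anchor of the Ishikawa and LNCaP lists and in no T-47D anchor.

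Loop density stood above the rest of the chromosome in Ishikawa alone at 8p, in all 3 lists at 17q, and in Ishikawa and LNCaP at 18q. Its place within the end differed between Ishikawa and both other lists at 17q, and between Ishikawa and LNCaP at 18q. In the 8p end the Ishikawa list held 161 loops per Mb against 41.3 over the rest of the chromosome, a ratio of 3.89 (95% interval 3.69 to 4.09). T-47D held 3.42 against 15.4 loops per Mb there, a ratio of 0.222 (0.159 to 0.302) from 41 loops, and LNCaP 30.1 against 51.8, a ratio of 0.581 (0.521 to 0.645) from 361 loops. Both other lists were thus sparser at this end than over the rest of the chromosome. In the 17q end the ratio was 3.03 (2.89 to 3.18) in Ishikawa, at 201 against 66.2 loops per Mb. It was also above 1 in T-47D, at 1.78 (1.65 to 1.92) from 918 loops, and in LNCaP, at 1.42 (1.34 to 1.50) from 1670 loops. In the 18q end it was 4.25 (4.01 to 4.51) in Ishikawa, at 172 against 40.5 loops per Mb, 0.534 (0.329 to 0.827) in T-47D from 22 loops, and 1.66 (1.54 to 1.80) in LNCaP from 773 loops.

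**Figure D1:**
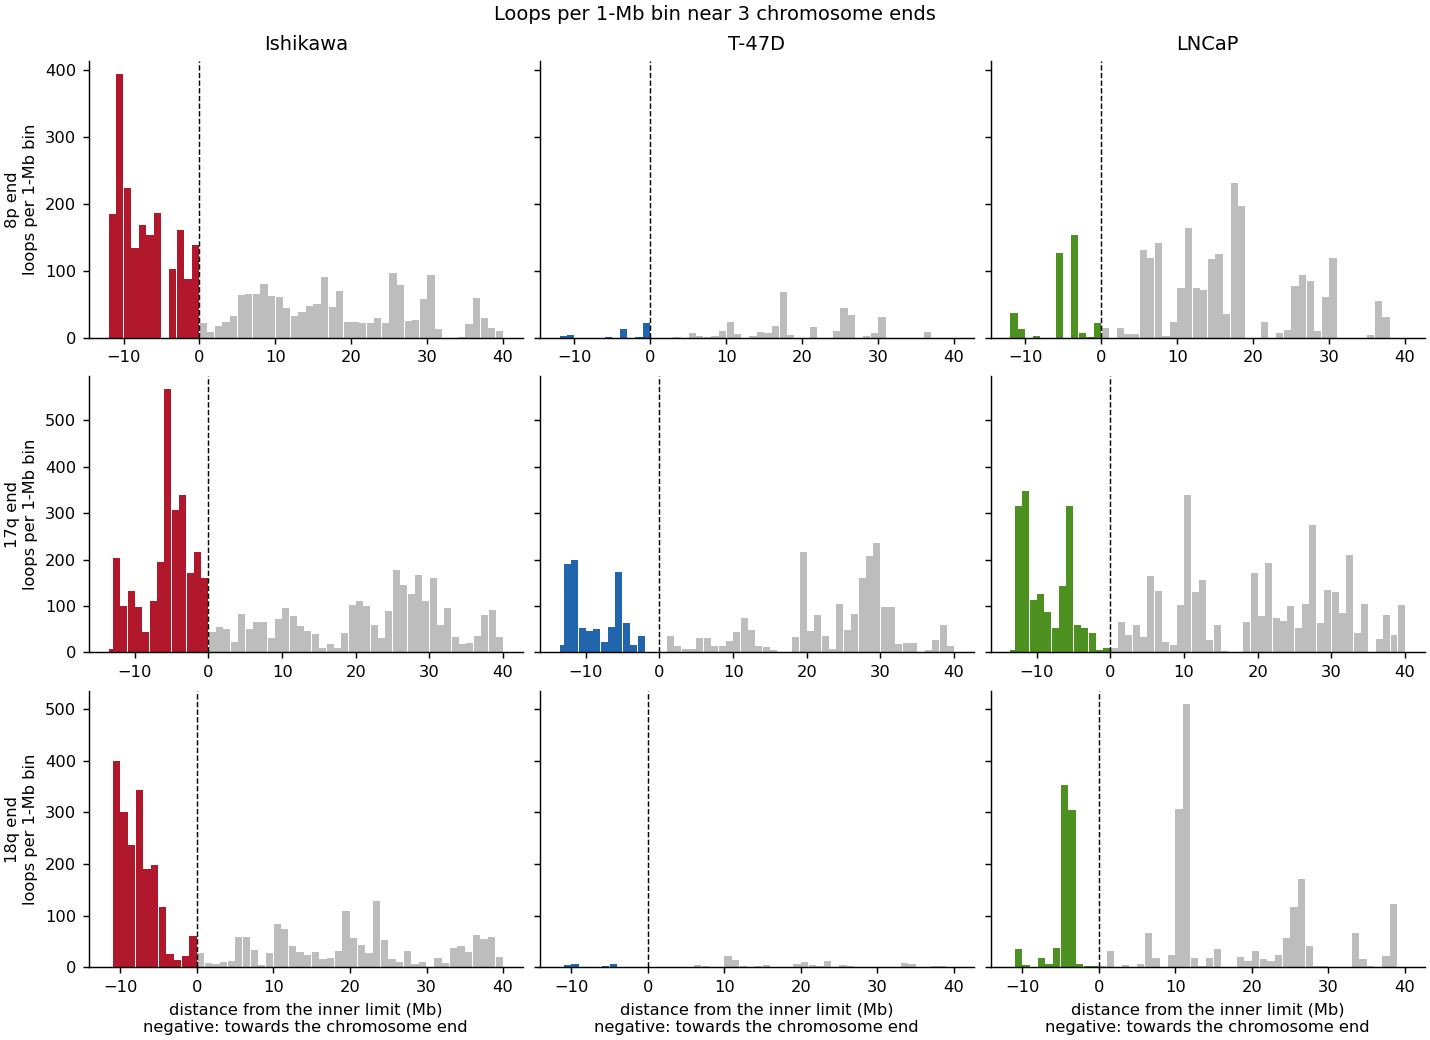
Loops in each 1-Mb bin (y axis) by distance of the bin from the inner limit of the segment in Mb (x axis, negative towards the chromosome end, shown to 40 Mb outside), for the 3 ends (rows) and the 3 lists (columns). Coloured bars are bins of the end and grey bars are bins of the rest; the outermost 17q and 18q bins are shorter than 1 Mb. In Ishikawa the bar heights fall at the 8p limit from 138 to 21 loops, whereas the 18q bins next to the limit are low.

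The 4 Ishikawa blocks gave the same order of ends. Their ratios were 4.71, 5.00, 4.76 and 4.15 in the 8p end, 3.40, 3.86, 3.52 and 3.06 in the 17q end, and 5.11, 5.71, 5.43 and 4.53 in the 18q end. In each block the ratio was highest in the 18q end and lowest in the 17q end. Blocks held between 24190 and 99915 loops in all, and the block with the most loops had the lowest ratio at each end. Loops found in all 4 blocks made up 6.49% of the 8p end loops, 8.61% at 17q and 8.33% at 18q, against 2.14%, 4.49% and 3.17% over the rest of each chromosome. The blocks make up the list whose density chose the segments, so their ratios and shares are a description and support nothing.

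**Figure D2:**
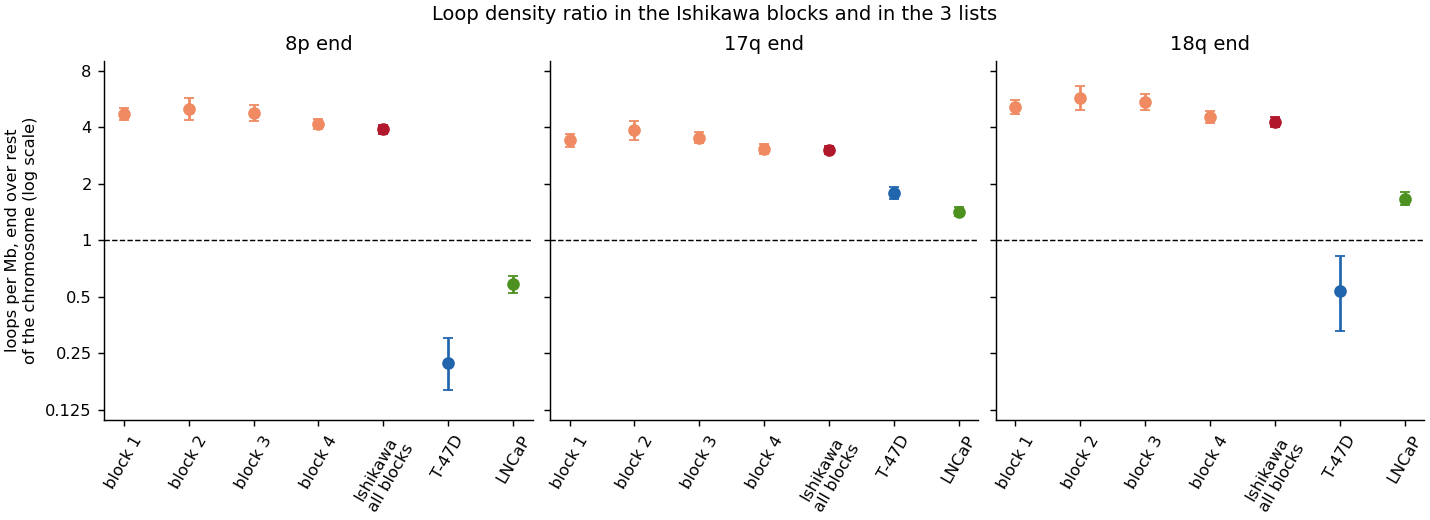
Ratio of loops per Mb in each end to that of the rest of its chromosome (y axis, log scale) for the 4 blocks of the Ishikawa list, the whole Ishikawa list, T-47D and LNCaP, with exact 95% intervals for counting error; the dashed line is a ratio of 1. The blocks lie between 3.06 and 5.71, T-47D lies below 1 at 8p and 18q, and LNCaP lies below 1 at 8p only.

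The density was not even within the segments. Of the 3113 bins of 1 Mb in the genome, 12.3% held 100 or more Ishikawa loops, and the bins of the ends that did were 10 of 12 at 8p, 10 of 14 at 17q and 7 of 12 at 18q, a count that the choice of segments fixed. Just inside and outside the limits, the bins held 138 and 21 loops at 8p, 160 and 44 at 17q, and 60 and 27 at 18q. The 8p end was densest at 1 to 2 Mb, with 393 loops, and dropped to 17.2 loops per Mb over the 4 Mb beyond its limit. One 8p bin, from 7 to 8 Mb, held no anchor and no loop in any list. Of its 31-base windows, 90.0% occurred more than once on the chromosome, against 3.82 to 16.4% in the other bins of this end and 44.7% in the bin just outside the limit. The part of repeated sequence in either drop was not tested.

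The 17q end held 278 Ishikawa loops per Mb from 68 to 75 Mb and 112 from 75 Mb on, with a peak of 567 loops at 73 to 74 Mb. The other lists ran the other way. T-47D held 48.9 loops per Mb in the first stretch and 92.7 in the second, and LNCaP 88.7 and 169. The 18q end was not dense throughout in Ishikawa. From 67 to 71 Mb it held 30.0 loops per Mb, fewer than the 40.5 of the rest of the chromosome, so the label of a dense end is not borne out there, and from 71 Mb on it held 252. In LNCaP, loops of the 18q end lay mostly at 70 to 71 Mb, with 305 loops, and at 71 to 72 Mb, with 354. Many of them, 268, crossed 71 Mb, so the LNCaP density beyond it depended on the count used. The 298 loops with both anchors beyond 71 Mb gave 42.1 per Mb, 1.00 times the rest of the chromosome, and the 457 with their middle there gave 64.6 per Mb, or 1.54 times.

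Stretches without any promoter were looped too. The 8p bin at 5 to 6 Mb, which holds no start site of a protein-coding gene, had 153 Ishikawa loops and 0 in T-47D and LNCaP. The 17q bin at 69 to 70 Mb, in the gene desert before SOX9, had 216 Ishikawa loops, 0 in T-47D and 5 in LNCaP. The 18q bin at 75 to 76 Mb had 236 Ishikawa loops and 0 in both others, although the other 18q bins without a start site, at 68 to 69 and 69 to 70 Mb, had 22 and 15. By contrast, the 12 bins without a start site on the rest of chromosome 8 that held an Ishikawa anchor had 1 to 37 Ishikawa loops, and the 8 such bins on chromosome 18 had 0 to 24. A count of 0 allows up to 3 loops, at the depth of the list concerned.

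The higher Ishikawa loop density was made up of more anchors per Mb and more loops per anchor. Relative to the rest of the chromosome, anchors per Mb were 1.60 times as frequent at 8p, 1.37 at 17q and 1.62 at 18q, and loops per anchor 2.43, 2.21 and 2.63 times. The median anchor had 5 partners at 8p against 2, 6 at 17q against 3, and 6 at 18q against 2. Mean read pairs per loop stood at 7.35 against 5.44 at 8p, 8.45 against 6.69 at 17q, and 8.10 against 5.83 at 18q. A loop is counted only from 3 read pairs on, so this measure and the loop density are not independent. Anchors were of nearly the same width (ratios 1.07 to 1.11), and together they covered 34.3%, 34.7% and 33.9% of the bases of the 8p, 17q and 18q ends, against 18.7%, 21.7% and 17.3% of the rest. In Ishikawa, read pairs that joined an anchor to itself were also more frequent at the ends. There were 8.28 per anchor at 8p against 3.75, 11.5 at 17q against 5.25, and 9.75 at 18q against 4.32. In T-47D the ratios of such pairs per anchor were 0.342, 0.870 and 0.982, where its density ratios were 0.222, 1.78 and 0.534. The T-47D values at 17q thus lay on opposite sides of 1. The LNCaP list held no such pairs. The part of read depth within anchors in the loop density was not tested.

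Base composition and gene content also differed from the rest of each chromosome. GC content was 43.0% at 8p against 39.9%, 49.4% at 17q against 44.8%, and 41.1% at 18q against 39.6%. Protein-coding genes numbered 8.08 per Mb at 8p against 4.55, 15.6 at 17q against 14.5, and 2.98 at 18q against 3.48. Of the 97 genes at 8p, 42 lay in the 7 to 8 Mb bin that held no loop. The first 7 Mb held 3.14 genes per Mb and the stretch from 8 to 12 Mb held 8.25. Loops between a promoter and a distal anchor made up 22.2% of the Ishikawa loops at 8p, 35.1% at 17q and 21.8% at 18q, against 21.1%, 37.0% and 24.2% of the rest. The part of base composition in the loop density was not tested.

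**Figure D3:**
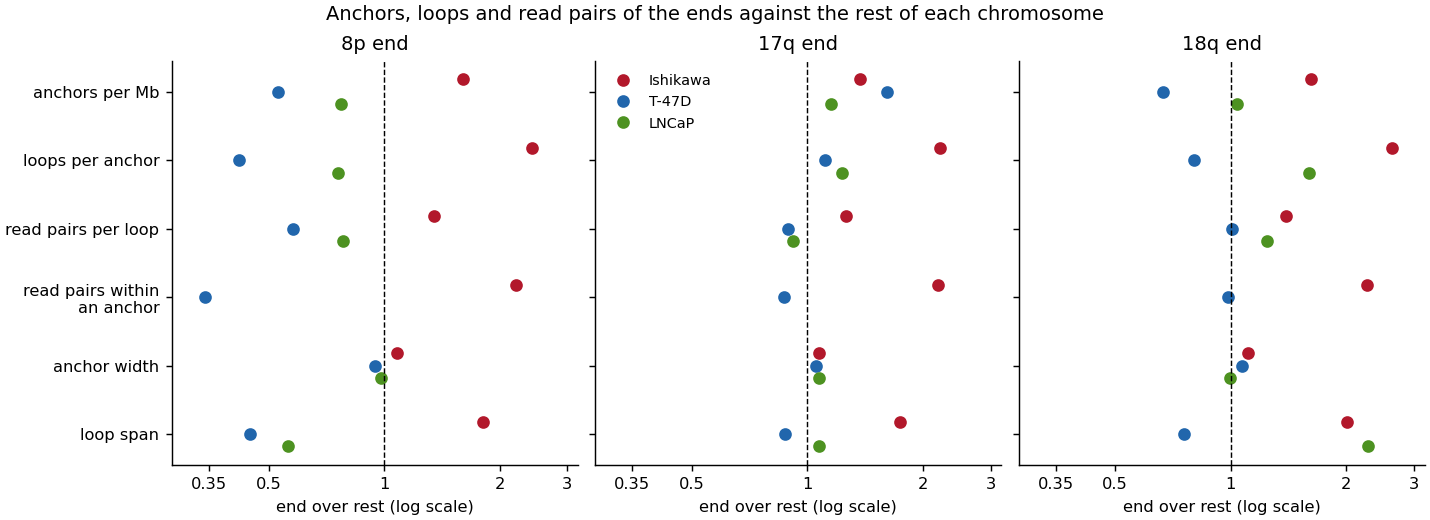
Ratio of each measure in the end to the same measure over the rest of the chromosome (x axis, log scale), for Ishikawa, T-47D and LNCaP, at the 3 ends; the dashed line is 1. Widths and spans are medians, read pairs per loop are means, and LNCaP has no value for read pairs within an anchor; the Ishikawa points for loops per anchor lie at 2.21 to 2.63.

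Loops at the ends also reached farther in Ishikawa, as they did in the other dense segments given below. The median span was 54.3 kb at 8p against 30.0 kb, 58.2 kb at 17q against 33.5 kb, and 66.6 kb at 18q against 33.1 kb. Since anchors were also packed more closely, all pairs of anchors were sorted by distance and the share joined by a loop was counted. At 5 to 20 kb the share was 84.8% (81.5 to 87.6) at 8p against 73.8% (72.1 to 75.4). At 100 to 200 kb it was 8.85% (7.96 to 9.84) against 3.98% (3.69 to 4.30), and at 500 kb to 1 Mb 0.398% (0.310 to 0.511) against 0.0994% (0.0791 to 0.125). Relative to the rest of the chromosome, the share thus stood higher the greater the distance. It did so at 17q as well, from 82.7% against 73.3% at 5 to 20 kb to 0.315% against 0.0668% at 500 kb to 1 Mb. At 18q the shares were 83.5% against 74.7% and 0.480% against 0.0659%. Most of the closest pairs were joined in the rest as well, which limits the ratio at short distance, so nothing is read from its rise. The joined loops in Ishikawa are those whose density chose the segments, so the higher Ishikawa shares are a description and support nothing. In LNCaP the 8p end had lower shares than the rest from 50 to 200 kb, for example 25.3% (20.4 to 30.9) against 39.8% (38.0 to 41.7) at 50 to 100 kb, whereas the 18q end had higher ones at 500 kb to 1 Mb, 11.9% (10.4 to 13.7) against 3.65% (3.25 to 4.11).

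**Figure D4:**
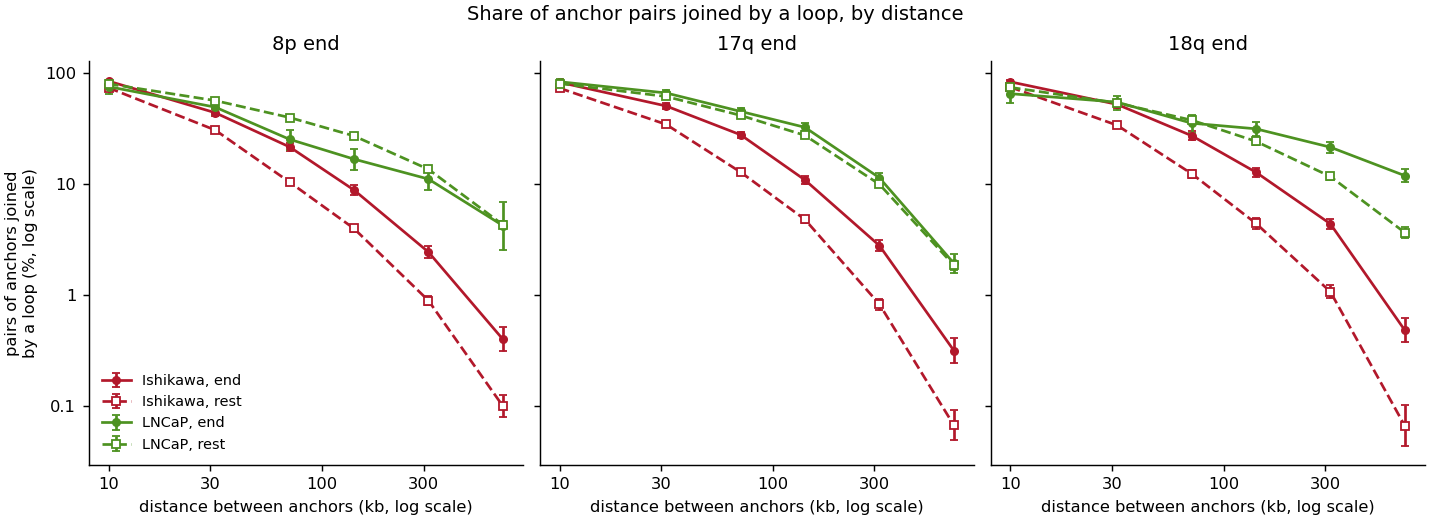
Percent of all anchor pairs joined by a loop (y axis, log scale) against the distance between anchors in kb (x axis, log scale, at the geometric middle of each of 6 distance bins), for Ishikawa (red) and LNCaP (green); filled points are the end and open points the rest of the chromosome, with 95% Wilson intervals. The Ishikawa curve of each end lies above that of the rest in all 6 bins, from 84.8% against 73.8% to 0.398% against 0.0994% at 8p.

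Among protein-coding genes, 52.5% of all 20162 were linked to a distal anchor in Ishikawa, and 34.7% and 52.4% were in T-47D and LNCaP. In the 8p end 31 of 97 genes were linked in Ishikawa (32.0%, interval 23.5 to 41.8), below the 55.9% of the rest of the chromosome, although loops were denser. Without the 42 genes of the empty 7 to 8 Mb bin, 31 of 55 were linked (56.4%). In the 17q end 152 of 206 were linked (73.8%, 67.4 to 79.3, against 54.9% of the rest), and in the 18q end 30 of 33 (90.9%, 76.4 to 96.9, against 56.7%). In T-47D the shares were 9.28%, 57.8% and 21.2% at 8p, 17q and 18q. LNCaP had 21 linked genes at 8p (21.6%), 138 at 17q and 20 at 18q (60.6%). Genes with 10 or more linked distal anchors in Ishikawa, 3.82% of all genes, numbered 11 at 8p (11.3%), 26 at 17q (12.6%) and 13 at 18q (39.4%). Genes with more linked distal anchors in Ishikawa than in each other list, 26.0% of all genes, numbered 25 at 8p (25.8%), 78 at 17q (37.9%) and 22 at 18q (66.7%). Genes linked in Ishikawa alone, 15.0% of all, numbered 13 (13.4%), 26 (12.6%) and 10 (30.3%). These counts rest on the Ishikawa density that chose the segments, and nothing is read from them.

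**Figure D5:**
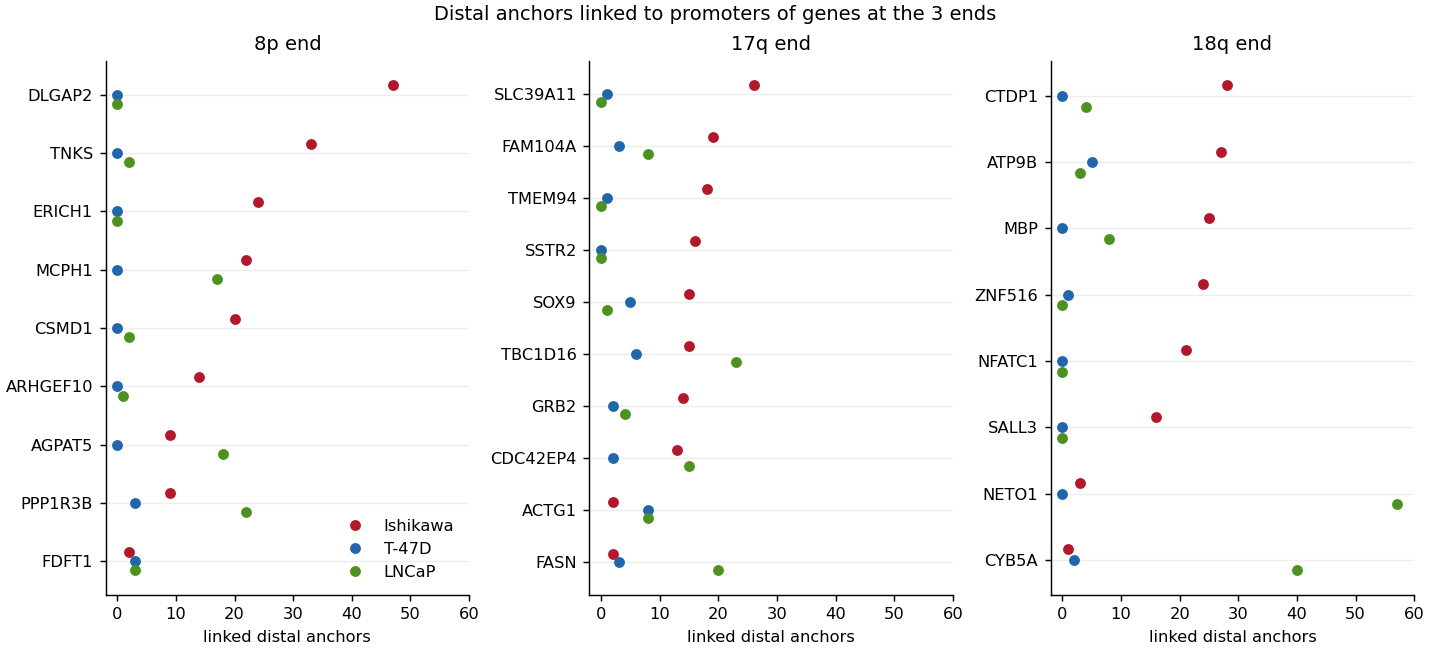
Number of distal anchors linked to the promoters of named genes (x axis) in Ishikawa (red), T-47D (blue) and LNCaP (green), for the 8p, 17q and 18q ends; each point is 1 list, and the genes are those named in the text among the genes with the most links per end and the gene list members with at least 14 in any list. Ishikawa has the most links for DLGAP2 (47), SLC39A11 (26) and CTDP1 (28), and LNCaP for NETO1 (57) and CYB5A (40).

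At 8p DLGAP2, which encodes a scaffold protein of the postsynaptic density, had 47 linked distal anchors in Ishikawa (507 read pairs) and 0 in both other lists. In the 4 Ishikawa blocks it had 23, 12, 28 and 40. Of the 47, 40 lay inside the gene itself and 7 upstream of it, and the farthest was 163 kb from a start site. ERICH1, which lies on the other strand and overlaps DLGAP2 at its start, had 24 in Ishikawa (12, 6, 12 and 18 by block) and 0 in both others. A distal anchor joined to an anchor over promoters of both genes counts for each of them. CSMD1, which encodes a large membrane protein that regulates complement, had 20, 0 and 2 in Ishikawa, T-47D and LNCaP, and all 20 lay within the gene.

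The strongest 8p loops lay away from genes. A chain of 3 loops, with 133, 126 and 79 read pairs, joined neighbouring anchors between chr8:2205618 and chr8:2266095, an intergenic stretch beyond MYOM2, a gene for a structural protein of the muscle sarcomere. Each was found in all 4 blocks. The anchor shared by the stronger pair, chr8:2218171-2232417, lay 105 kb from MYOM2 and had 38 partners and 777 read pairs, the most partners of any Ishikawa anchor of the 8p end. MYOM2 itself had 6 linked distal anchors in Ishikawa.

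Closer to the limit, TNKS, which encodes tankyrase, a poly-ADP-ribose polymerase of telomeres and Wnt signalling, had 33 linked distal anchors in Ishikawa (18, 7, 9 and 28 by block), 0 in T-47D and 2 in LNCaP. Of its 33, 20 were upstream, 9 in the gene and 4 downstream, and the farthest, 1673 kb away, was downstream. MCPH1, which encodes microcephalin, a regulator of chromosome condensation, was linked in both Ishikawa (22) and LNCaP (17). ANGPT2, the gene for angiopoietin-2, lies within MCPH1 on the other strand and had 0, 0 and 12 in Ishikawa, T-47D and LNCaP. PPP1R3B, which encodes a glycogen-targeting subunit of protein phosphatase 1, had 22 in LNCaP against 9 in Ishikawa and 3 in T-47D. Its promoter anchor had the most partners of any LNCaP anchor at 8p, 25. AGPAT5, an acyltransferase of phospholipid synthesis, had 18 in LNCaP, 9 in Ishikawa and 0 in T-47D. FDFT1, squalene synthase, had 3 in both T-47D and LNCaP and 2 in Ishikawa, and no 8p gene exceeded 3 in T-47D, a count that PPP1R3B and ERI1 also had. GATA4 and SOX7, developmental transcription factors near the limit, had 0 in all lists, although the T-47D anchor with the most partners at 8p (8) lay in an intron of GATA4.

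At 17q the links lay on genes of many functions. SLC39A11, a zinc transporter gene, had 26 linked distal anchors in Ishikawa (13, 6, 17 and 20 by block), 1 in T-47D and 0 in LNCaP, and 19 of the 26 lay inside the gene. FAM104A had 19, 3 and 8 in Ishikawa, T-47D and LNCaP, and TMEM94 had 18, 1 and 0. SSTR2, a somatostatin receptor gene, had 16 in Ishikawa (10, 1, 9 and 9 by block) and 0 in both others. SOX9, a transcription factor of cartilage, testis and epithelial progenitors, had 15 in Ishikawa (5, 2, 4 and 9 by block), 5 in T-47D and 1 in LNCaP. Of the 15, 9 were downstream and 6 upstream, in the desert, and the farthest, 1351 kb from the gene, was upstream. All 5 in T-47D and the 1 in LNCaP were downstream.

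The strongest 17q loop in Ishikawa, with 209 read pairs over 22.9 kb, joined the anchor at chr17:73980702-74001966, over the CDK3 and TEN1 promoters, to chr17:74003799-74024711, over the promoter of EVPL. EVPL encodes envoplakin, a protein of the cornified envelope of epithelia, and had 10 linked distal anchors in Ishikawa, 5 in LNCaP and 1 in T-47D. Of the 10, 2 lay more than 500 kb away. The farthest was 5482 kb away, beyond the 2 Mb that LNCaP loops span at most. The next loop, with 86 read pairs, joined the same EVPL anchor to the SRP68 promoter. The anchors with the most partners, 36 each, were chr17:72788544-72813532, over exons of TMEM104, and chr17:73115610-73128737, over the NT5C promoter.

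The other lists were led by genes nearer to the telomere of 17q. FASN, which encodes fatty acid synthase, had 20 in LNCaP, 3 in T-47D and 2 in Ishikawa. The strongest 17q loops of T-47D (97 read pairs) and LNCaP (477 read pairs) each had 1 anchor over its promoter, and the LNCaP anchor there, chr17:80051012-80075339, had 57 partners. This LNCaP anchor also held a promoter of the neighbouring gene CCDC57, and the other anchor of both loops lay over a CCDC57 promoter. CCDC57 had 20 in LNCaP, 6 in T-47D and 7 in Ishikawa. TBC1D16, a GTPase-activating protein for Rab proteins, had 23 in LNCaP, 15 in Ishikawa and 6 in T-47D. ACTG1, which encodes gamma-actin, had 8 in both T-47D and LNCaP and 2 in Ishikawa.

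At 18q CTDP1, a phosphatase that acts on the tail of RNA polymerase II, had 28 linked distal anchors in Ishikawa (20, 17, 14 and 19 by block), 0 in T-47D and 4 in LNCaP. ATP9B, a phospholipid flippase gene, had 27 (19, 12, 18 and 24 by block), 5 and 3. MBP, which encodes myelin basic protein, had 25 (19, 9, 16 and 16 by block), 0 and 8, and the largest read pair sum among the 18q genes in Ishikawa, 601. ZNF516, a zinc finger gene, had 24, 1 and 0. NFATC1, a transcription factor of lymphocytes and osteoclasts, had 21, 0 and 0, and its gene held the strongest 18q loop of Ishikawa, 84 read pairs between chr18:77247190-77259906 and chr18:77261369-77286382. SALL3, a developmental transcription factor, had 16, 0 and 0, but by block 7, 0, 4 and 9, so its links were missing from 1 block.

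In LNCaP, NETO1, which encodes an auxiliary subunit of glutamate receptors, had 57 linked distal anchors with 2174 read pairs, against 3 in Ishikawa and 0 in T-47D. Of the 57, 45 were upstream, 25 were more than 500 kb away and the farthest was 1617 kb away. The strongest 18q loop of LNCaP joined the NETO1 promoter anchor to chr18:70707460-70718136 with 430 read pairs. The LNCaP anchor with the most partners, chr18:70844236-70861140, lay 309 kb from NETO1 with 65 partners and 3151 read pairs. CYB5A, which encodes cytochrome b5, had 40 in LNCaP, 2 in T-47D and 1 in Ishikawa, and 31 of the 40 lay downstream, on the NETO1 side. LNCaP loops at 18q had a median span of 269 kb against 118 kb over the rest of the chromosome.

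The counts of the gene lists placed at these ends are given in the order Ishikawa, T-47D, LNCaP. Over all protein-coding genes 52.5%, 34.7% and 52.4% were linked, and the medians of linked distal anchors were 1, 0 and 1. The genes lie in segments chosen for their Ishikawa loops, so the counts are a description and no difference between cell lines or lists is read from them. Of 23 defensin genes, which encode antimicrobial peptides, 3, 0 and 0 were linked (13.0% in Ishikawa), namely DEFB135 (4 anchors), DEFB1 (3) and DEFB134 (3). Many of the others, DEFB4A among them, lie in the 7 to 8 Mb bin of 8p. It held no anchor in any list, so genes there could not be linked. Of 11 long neuronal and muscle genes, 10, 0 and 5 were linked (90.9%, 0% and 45.5%), with medians of 6, 0 and 0. The list includes GALR1, a galanin receptor gene of only 28.1 kb, which had 4, 0 and 0. Of 14 developmental transcription factor and Polycomb genes, 10, 5 and 8 were linked (71.4%, 35.7% and 57.1%), with medians of 8, 0 and 1. Of 15 signalling genes, led by TNKS, SSTR2, the guanine nucleotide exchange factor gene ARHGEF10 (14, 0 and 1) and the adaptor gene GRB2 (14, 2 and 4), 11, 5 and 10 were linked (73.3%, 33.3% and 66.7%), with medians of 5, 0 and 2.

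In the same order of cell lines, 13, 9 and 12 of 14 metabolic and lysosomal genes were linked (92.9%, 64.3% and 85.7%), with medians of 3, 2 and 5.5. Of 16 cell division and nuclear genes, 15, 11 and 14 were linked, with medians of 5.5, 1.5 and 5, where PINX1, annotated as 2 records, was counted once by the record with more links. The list includes ATP9B, the flippase gene, and without it 14, 10 and 13 of 15 were linked, with medians of 5, 1 and 6. Of 9 epithelial structure and matrix genes, 7 were linked in each list (77.8%), with medians of 2, 1 and 5. CDC42EP4, an effector of the GTPase CDC42, had 13, 2 and 15, and ITGB4, an integrin of hemidesmosomes, had 9, 1 and 0. Of the 10 listed CD300 and other immune cell receptor genes, 4, 1 and 1 were linked (40.0%, 10.0% and 10.0%). Among these 10, CD300LB (8) and CD300E (7) had the most in Ishikawa, and SECTM1, with 5 and 10, was the one linked in T-47D and LNCaP. CD300H, a 17q gene that the list does not hold, had 13, 0 and 0, more than any listed CD300 gene.

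Loops of T-47D and LNCaP were also looked for in Ishikawa. Since the ends were chosen for their many Ishikawa loops, a loop of another list meets more of them there, and the shares are a description. A loop counted as found when some loop of the second list overlapped both of its anchors by 1 bp or more. At 17q 177 of 918 T-47D loops were found in Ishikawa (19.3%, interval 16.9 to 22.0, against 9.70% of the rest), at 8p 5 of 41 (12.2%, 5.32 to 25.5, against 6.13%), and at 18q 6 of 22 (27.3%, 13.2 to 48.2, against 11.6%). The 8p and 18q intervals from T-47D are wide, and the 8p one includes the value of the rest. Of LNCaP loops, 17.5% (13.9 to 21.7) were found at 8p against 4.39%, and 17.0% (15.3 to 18.9) at 17q against 6.92%. At 18q it was 4.53% (3.27 to 6.23) against 4.56%. When the overlap had to cover 50% of both anchors, 0 of 41, 3 of 918 (0.327%) and 0 of 22 T-47D loops were found at 8p, 17q and 18q, against 0.241%, 0.715% and 0.803% of the rest, so the T-47D shares at each end then lay below the rest, with intervals that include its value. The LNCaP shares were then 1.11%, 1.98% and 0.259%, against 0.416%, 0.939% and 0.427%. With 5 or more read pairs in both lists, the T-47D shares were 5.56%, 16.9% and 10.0% (1 of 10 loops) at 8p, 17q and 18q. The rest had 3.93%, 8.26% and 10.9%. The LNCaP shares were 13.3%, 13.7% and 2.93%, against 3.12%, 5.09% and 3.14%. Ishikawa anchors covered more of the bases at the ends, as given above, and the part of this in the overlap was not tested. In the other direction, 0.259% of the 8p loops of Ishikawa were found in T-47D against 1.91% of the rest, and 2.91% in LNCaP against 4.61%. At 17q the shares were 5.52% and 9.41%, against 4.53% and 8.04%, and at 18q 0.262% and 1.94%, against 0.994% and 4.05%.

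Other dense segments of the Ishikawa list had higher ratios. On chromosome 3 from 166000001 to the end it was 6.24 (6.04 to 6.45), on chromosome 10 from 74000001 to the end 5.33 (5.13 to 5.55), and on chromosome 12 up to 73000000 it was 5.18 (4.98 to 5.39). All 3 ends described here lay below them, at 3.03 to 4.25, with the limits as given. From 71 Mb on, a limit chosen after seeing the data, the 18q ratio was 6.23, so this order depends on the limits. The split into anchors and partners was alike in kind, with 1.80 to 2.07 times the anchors per Mb and 2.82 to 3.01 times the loops per anchor in the other segments. Their median loop span was 1.87 to 2.06 times that of the rest. Mean read pairs per loop were 1.25 to 1.31 times, and read pairs within an anchor 1.92 to 2.41 times. At 500 kb to 1 Mb the joined shares were 0.488%, 0.309% and 0.421% on chromosomes 3, 10 and 12. The rest had 0.097%, 0.0705% and 0.0769%. These traits were thus not particular to the 3 ends. In T-47D the chromosome 3 segment was also dense, with a ratio of 4.37 (4.06 to 4.71), which none of the 3 ends reached in that list.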

How the data were processed

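Per the methods, the authors aligned HiChIP reads to hg19 with HiC-Pro, called loops with hichipper, dropped loops with under 3 reads or a high false discovery rate and combined the samples of a line. Tool versions are not given in the sources used here. The deposited values are counts of read pairs per anchor pair, not scaled for depth: 1040329 over loops in Ishikawa, 1805322 in LNCaP and 351260 in T-47D, so a sparse stretch in a shallower list is less certain. Rows of 1 anchor pair in the Ishikawa list were summed over its 4 blocks. LNCaP rows never joined an anchor to itself and spanned only 5 kb to 2 Mb, so spans and links are compared across lists with that limit. T-47D and LNCaP anchors were also narrower.

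Samples were grouped by cell line. Loop density, its components, linked genes and shared loops were computed with Python 3.11.15, numpy 2.4.6 and pandas 2.3.3. Density ratios have exact conditional 95% intervals and shares have 95% Wilson intervals (scipy 1.17.1). A loop was put in the bin of its middle. Promoters came from the GENCODE 44 annotation lifted to GRCh37. The procedures were tested on simulated data. The segments, their members and the gene lists were chosen with earlier results of these data known. Genes named are the 3 per end with most links in Ishikawa, the 1 with most in each other list, and the leading 2 to 4 per list, of which 1 is not reported here. ANGPT2, CCDC57, CD300H, ERI1, GALR1, GATA4, ITGB4, MYOM2, PINX1, SOX7 and SOX9 were named after their values were seen. Alternatives were other read pair minima, a span window, thinning, other anchor and promoter rules, and leaving out blocks.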

Additional observations from a re-analysis of the deposited data

Results flagged for a closer look

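The density ratios of the 8p end ran in opposite directions between the lists, above 1 in Ishikawa (3.89) and below 1 in T-47D (0.222) and LNCaP (0.581). At the 18q end T-47D (0.534) likewise stood opposite to Ishikawa (4.25). These differences between cell lines were not tested, since each line has 1 list.

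The T-47D list also held 70 anchor pairs across chromosomes, which the loop definition leaves out. The 8p end had 1 of them, joined to chromosome 1 by 7 read pairs, and the 17q end had 1, joined to chromosome 2 by 6 read pairs. The 18q end had 0, and the other lists held no such pairs.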

How the results depend on the processing

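With 1 list per line no value has a replicate error, so a value counts as moved when it left its own counting interval. Of 75 alternative density ratios, 38 stayed within that interval, 36 moved and 1 crossed 1. Ratios in Ishikawa were 4.90, 3.47 and 5.22 (8p, 17q, 18q) with 5 or more read pairs, 6.87, 4.02 and 7.70 with 10 or more, 4.70, 3.55 and 5.16 for spans of 20 kb to 1 Mb, 5.26, 3.83 and 5.91 by read pairs, 5.31, 3.64 and 5.86 after thinning to the depth of T-47D, and 5.24, 3.58 and 5.74 for loops in 2 or more blocks. Leaving out 1 block at a time gave 3.95 to 4.15 at 8p, 2.98 to 3.27 at 17q and 4.28 to 4.68 at 18q. By read pairs, T-47D stood at 0.128 (8p) and 1.58 (17q) and LNCaP at 0.455, 1.30 and 2.06. With 10 or more read pairs, T-47D stood at 0.156 at 8p, and LNCaP at 0.479 at 8p and 2.17 at 18q. LNCaP at 18q was 1.87 with 5 or more and 2.12 after thinning.

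Other limits for the segments were chosen after seeing the data. From 68 to 75 Mb of 17q the ratios were 4.20, 1.25 and 0.994 in Ishikawa, T-47D and LNCaP, so LNCaP fell to just under 1. From 71 Mb of 18q they were 6.23 in Ishikawa and 1.00 in LNCaP, where loops that cross 71 Mb are left out, and without 7 to 8 Mb the 8p ratio in Ishikawa was 4.24.

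Of 42 alternative shares of linked genes, 20 stayed within the interval and 22 moved. In Ishikawa the 17q share was 60.7% with 5 or more read pairs, 47.6% with 10 or more, 52.4% after thinning and 81.2% from 68 to 75 Mb. The 18q share was 57.6% with 10 or more, 75.8% after thinning and 97.0% with promoters of 2 kb, and the 8p share without 7 to 8 Mb was 56.4%. With 10 or more read pairs T-47D stood at 3.09%, 22.3% and 6.06% (8p, 17q, 18q) and LNCaP at 11.3%, 43.2% and 30.3%. With 5 or more, T-47D stood at 43.2% at 17q, and LNCaP at 59.2% at 17q and 42.4% at 18q. After thinning LNCaP stood at 11.3%, 39.8% and 30.3%, and with other limits at 38.2% (8p) and 58.4% (17q).

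Shared loops depended on the overlap rule. When the overlap had to cover 50% of both anchors, the share of T-47D loops found in Ishikawa was 0%, 0.327% and 0% (8p, 17q, 18q) and that of LNCaP loops 1.11%, 1.98% and 0.259%. With 5 or more read pairs it was 10.0% for T-47D at 18q, and 13.3%, 13.7% and 2.93% for LNCaP. Of these 12 alternatives, 2 stayed within the interval. The depth of T-47D limits the 8p and 18q values most, since they rest on 41 and 22 loops. No paired analysis was possible because the lists pool the samples of each line and their columns carry no replicate number.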
